A study of Mus musculus with 180 samples.

Results

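Sleep loss was followed in the cytosolic pS6 libraries of the study, that is in RNA bound to ribosomes whose ribosomal protein S6 is phosphorylated (pS6) and which stayed in the supernatant when brain homogenate was separated into cytosolic and membrane-bound fractions. All libraries with S6_SUP in their titles were taken, 30 of the 180 in the series, and the label of each was matched to its column of the count table by the number in its description. Mice that had been deprived of sleep (SD, 14 mice) were compared with mice that had slept (Sleep, 16 mice), averaged over a training factor in which mice had undergone contextual fear conditioning (CFC) or had not (NoCFC, the home-cage animals of the design). In each training arm 8 mice slept and 7 were deprived. All were male and carried the Camk2a-cre transgene of line T29-1Stl (B6.Cg background) and the RiboTag allele Rpl22tm1.1Psam (B6N.129), in which Cre recombination adds an HA tag to the ribosomal protein Rpl22. Neither the age of the mice nor the length of the sleep deprivation is in the labels, and the labels call the tissue brain where the title of the series says hippocampal neurons. The tag serves the Camk2a capture. The pS6 capture uses an antibody to the phosphorylated protein and so is not limited to cells with Cre. The title number was taken as the mouse. The labels do not say in words that each number is a separate animal, so p-values measure the spread between these samples.

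Ribosomal protein S6 is phosphorylated by S6 kinases downstream of mTORC1 and of MAP kinase signalling, and in the brain the mark follows neuronal activity within minutes to hours. Ribosomes pulled down with antibodies to pS6 are therefore used to enrich the transcripts of recently active cells. Cytosolic ribosomes translate proteins that stay in the cell body, nucleus and processes, whereas membrane-bound ribosomes mostly translate secreted and membrane proteins.

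Total counts were 17.5 to 25.4 M (mega-counts) per library, with a median of 20.3 M. Counts were scaled to CPM, the counts per mega-count of the library, and no 2 libraries of a group were copies of each other. The label gives the cell type as neuron, but transcripts of other cells were present in every library. Summed over 23 astrocyte markers the level was 1380 to 5030 CPM, over 20 oligodendrocyte markers 954 to 2040 CPM and over 19 microglia markers 68.1 to 135 CPM. Against this, 18 excitatory neuron markers summed to 11300 to 14600 CPM and 34 inhibitory neuron markers to 2230 to 2880 CPM, and no marker of these lists was at 0 in all libraries. In 7 libraries (3 Sleep, 4 SD) the 12 choroid plexus and ependyma markers summed to 580 to 2730 CPM, against 22.5 to 75.8 CPM in the other 23. In 3 libraries (1 Sleep, 2 SD) the astrocyte sum was 2940 to 5030 CPM, against at most 2140 CPM elsewhere. Mice numbered 1 to 11 were all NoCFC, 12 to 22 all CFC, and 23 to 30 held 2 of each group. These runs of numbers may be batches, and differences within each are given beside the main results.

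Averaged over training, sleep loss moved 1299 of 16485 genes tested (7.88%), with 758 higher (4.6%) and 541 lower (3.28%) in SD at an adjusted p under 0.05 (edgeR quasi-likelihood test, Benjamini-Hochberg adjustment over all genes). In what follows a gene rose or fell only where it passed this test, and fold changes are log2 of SD over Sleep with the standard error (SE) of the model. Changes were small in most genes: the median was 0.27 among genes that rose and -0.26 among those that fell, and the median of all genes was 0.00. The rises reached further than the falls. A change over 1, that is more than a doubling or halving, was found in 24 genes that rose and in 3 that fell, and a change over 0.5 in 138 and 73. Of the 1299 genes, 1291 (99.4%) had the same direction in all 3 runs of mouse numbers. Of the 758 that rose, 683 were above the Sleep median of their training arm in at least 12 of the 14 SD mice, and of the 541 that fell 492 were below it in at least 12. The genes of these counts were called on the same mice, so the agreement is largely set by that choice and is no replication. Without the 7 libraries high in choroid plexus markers 467 genes rose and 281 fell.

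**Figure D1:**
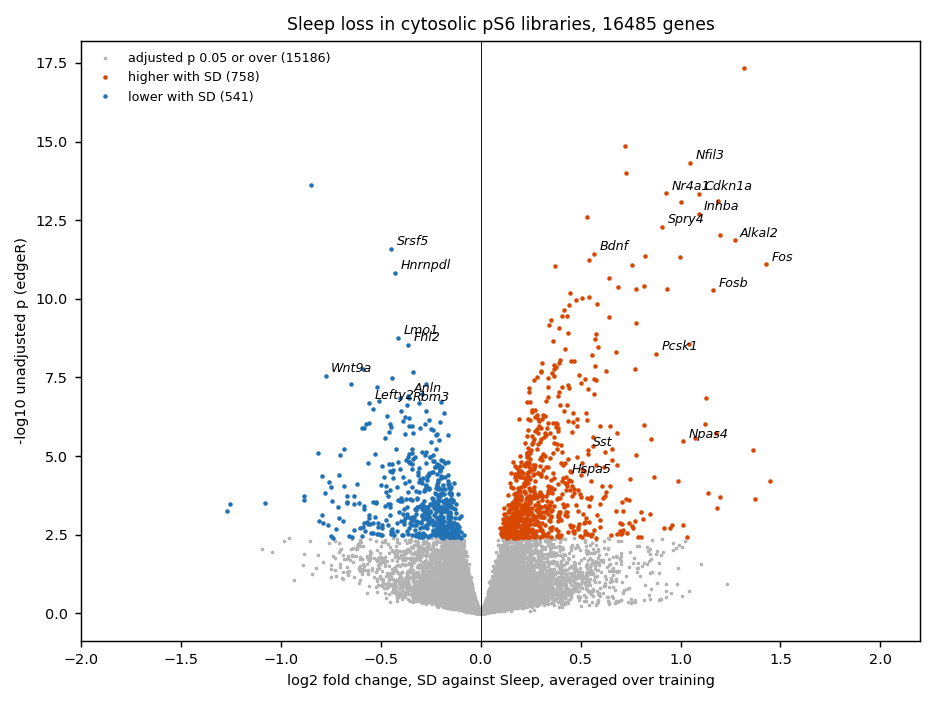
Each point is 1 of 16485 genes, with the log2 fold change of SD against Sleep averaged over training (x axis) and -log10 of the unadjusted p of edgeR's quasi-likelihood test (y axis). Orange points are the 758 genes higher and blue points the 541 lower at an adjusted p under 0.05, and the labelled genes with the largest rises lie further from 0 than any labelled gene that fell.

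Immediate-early transcription factors led the rise. These genes are switched on by calcium and kinase signalling without new protein synthesis, and their products drive later waves of transcription. Of 11 factors of the AP-1 family, which bind DNA as pairs of Fos and Jun proteins, 5 rose and none fell, with a median log2 fold change of 0.31. Of 8 Egr, Nr4a and Npas4 factors 7 rose and none fell, with a median of 0.58. Over 5 lists of activity-regulated genes together, 51 of 90 genes rose and 3 fell (median 0.37), where the shares over all genes were 4.6% and 3.28%. These lists share members, among them Sst and Tac1, with the inhibitory neuron markers read below.

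Fos (12:85473890-85477273, GRCm38, plus strand) was read at 9.06 to 22.7 CPM (median 15.4) in NoCFC Sleep mice and at 27 to 57.8 CPM (median 44.4) in NoCFC SD mice. In CFC mice it was at 11.7 to 22.3 CPM (median 17.5) with Sleep and 33.1 to 59.6 CPM (median 43.6) with SD. Every SD mouse was above every Sleep mouse in both arms. The log2 fold change was 1.43 ± 0.13 (SE, adjusted p = 6.7e-09, edgeR), and within the 3 runs of numbers the differences were 1.54, 1.31 and 1.41. Fosb rose by 1.16 ± 0.12, from medians of 12.9 to 29.6 CPM in NoCFC and 28.9 to 52.6 CPM in CFC, again with no overlap in either arm. The CFC Sleep mice, at 22.4 to 33.8 CPM of Fosb, already lay above all NoCFC Sleep mice, at 7.28 to 17.7 CPM. Fosl2 (0.73 ± 0.06), Fosl1 (0.60 ± 0.10) and Junb (0.53 ± 0.08) completed the AP-1 genes that rose. Jun, the usual partner of Fos, did not pass (-0.02), nor did Jund (0.10) and Atf3 (0.15).

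Nr4a1, an orphan nuclear receptor, stood at 46.3 to 78.7 CPM (median 65.6) in NoCFC Sleep and 82.2 to 150 CPM (median 121) in NoCFC SD mice, and at 57.5 to 74.7 CPM (median 70.1) in CFC Sleep and 108 to 165 CPM (median 129) in CFC SD mice. Sleep and SD mice were again fully separated, with a log2 fold change of 0.93 ± 0.07 (adjusted p = 1.1e-10, edgeR). Its relatives Nr4a2 (0.72 ± 0.05) and Nr4a3 (0.42 ± 0.05) rose too. Npas4, a factor induced in neurons by calcium entry, was low in all groups. It was at 2.8 to 8.69 CPM (median 5.02) and 8.85 to 14.8 CPM (median 13) in NoCFC Sleep and SD mice, and at 2.19 to 9.92 CPM (median 5.3) and 7.51 to 14.7 CPM (median 10.1) in CFC Sleep and SD mice. The groups did not overlap in NoCFC and overlapped in CFC, and the averaged change was 1.01 ± 0.18 (adjusted p = 0.00029, edgeR). Egr2 (1.07 ± 0.18), Egr4 (0.44 ± 0.07) and Egr1 (0.43 ± 0.07) rose, and Egr3 did not pass (0.08).

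Among 21 other activity-regulated nuclear genes 10 rose and 1 fell (median 0.25). The cell-cycle inhibitor Cdkn1a rose by 1.09 ± 0.09, from medians of 8.46 to 15.8 CPM in NoCFC and 9.62 to 22 CPM in CFC. Nfil3, a repressor of the basic leucine zipper family, rose by 1.05 ± 0.08, and Crem, a member of the CREB family, by 0.64 ± 0.07. For these 3 genes all SD mice were above all Sleep mice of the same arm. The Krüppel-like factor Klf10 was the member that fell (-0.24 ± 0.06).

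**Figure D2:**
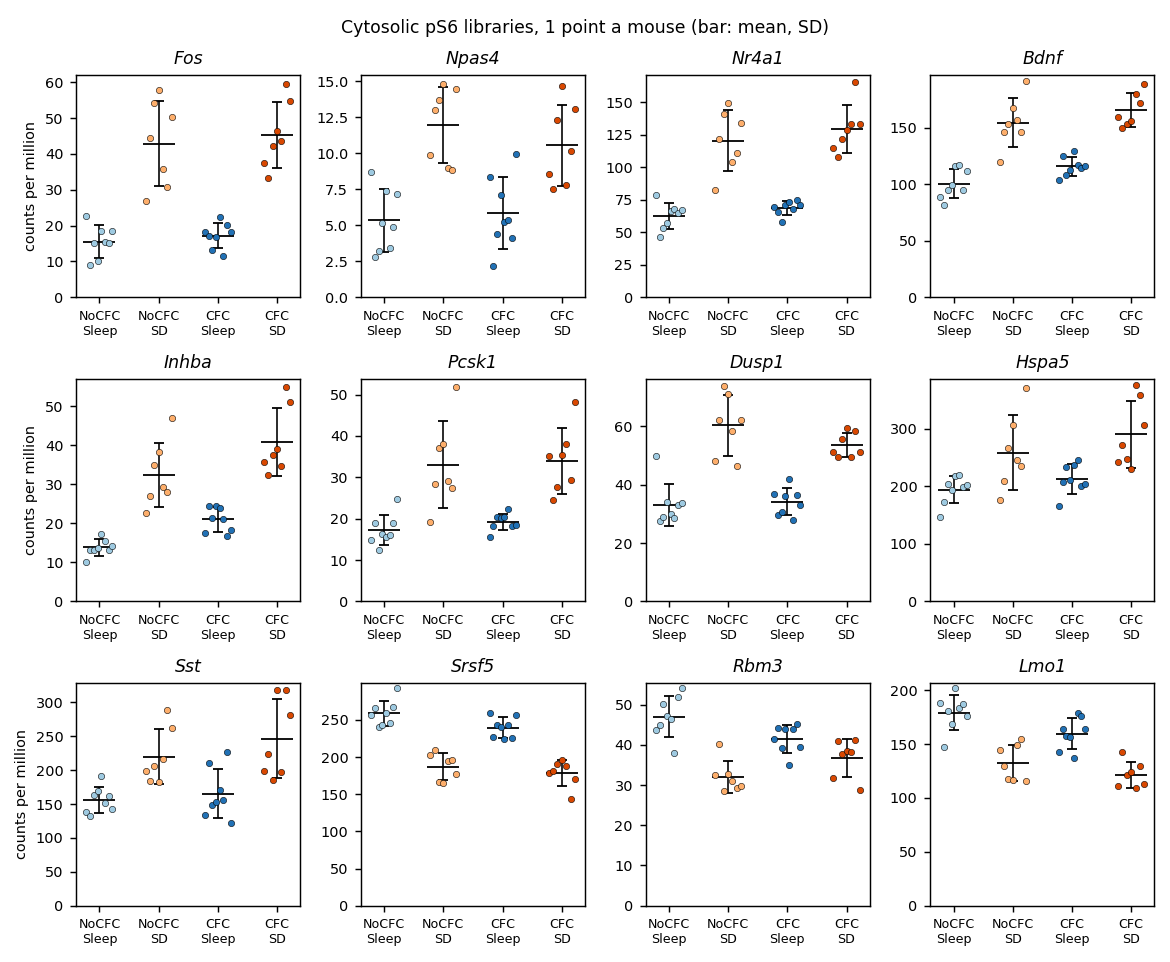
CPM of 12 genes in each mouse (1 point a mouse, in 4 groups of 7 or 8) with the mean and SD of each group as a bar. Fos, Nr4a1, Bdnf and Inhba separate SD from Sleep mice in both arms, Srsf5 does so downwards, and the other genes overlap in at least 1 arm.

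Effector genes that act at dendrites and synapses rose in 12 of 20 cases, with none lower (median 0.32). Sik1, a kinase that restrains CREB signalling, rose by 1.00 ± 0.10, and the scarce transcript of the kinase Pim1 by 1.12 ± 0.19 at group medians of 0.46 to 1.13 CPM. Arc, whose product removes AMPA receptors from synapses, was at 99.5 to 205 CPM (median 161) in NoCFC Sleep and 168 to 297 CPM (median 240) in NoCFC SD mice, and at 143 to 212 CPM (median 199) in CFC Sleep and 170 to 339 CPM (median 241) in CFC SD mice. Its groups overlapped in both arms, and it rose by 0.51 ± 0.10 in the average (adjusted p = 0.001, edgeR). Homer1, a scaffold gene whose short form is made on activity, rose by 0.39 ± 0.07 with up to 1231 CPM in CFC SD. The counts do not separate its isoforms. Plk2, a kinase that acts in homeostatic scaling of synapses, was at 0.08 and did not pass.

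Secreted factors formed the longest group, with 17 of 30 higher and 2 lower (median 0.41). Bdnf, the neurotrophin that signals through TrkB, was at 81.2 to 117 CPM (median 97.2) in NoCFC Sleep and 120 to 192 CPM (median 154) in NoCFC SD mice. In CFC it was at 104 to 129 CPM (median 115) and 150 to 189 CPM (median 159). No SD mouse was as low as any Sleep mouse of its arm, and the log2 fold change was 0.57 ± 0.06 (adjusted p = 3.8e-09, edgeR). Ntrk2, the gene of its receptor, rose by 0.32 ± 0.06, and in the list of neurotrophin receptors and partners 3 of 11 genes rose and none fell. Inhba, which encodes the activin A subunit, went from medians of 13.5 to 29.4 CPM in NoCFC and of 21.3 to 37.6 CPM in CFC, without overlap (1.09 ± 0.09, adjusted p = 3.3e-10, edgeR). Inhbb, which encodes the other activin beta subunit, fell by 0.42 on the log2 scale (SE 0.08). Alkal2, a ligand of the receptor kinases Alk and Ltk, had the largest rise of this list (1.27 ± 0.12). Its exons overlap those of Acp1 on the other strand, which was at -0.02.

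The neuropeptide and granule genes Crh (1.04 ± 0.13), Nptx2 (0.68 ± 0.09), Sst (0.54 ± 0.10), Scg2 (0.50 ± 0.07), Vgf (0.46 ± 0.08), Tac1 (0.37 ± 0.08) and Pdyn (0.36 ± 0.07) rose. So did Pcsk1, the gene of the prohormone convertase that cuts many such precursors. It was at 12.5 to 24.8 CPM (median 16.2) and 19.2 to 51.9 CPM (median 29.2) in NoCFC Sleep and SD mice, and at 15.5 to 22.3 CPM (median 19.2) and 24.4 to 48.1 CPM (median 35.1) in CFC Sleep and SD mice. The groups overlapped in NoCFC and not in CFC (0.88 ± 0.11, adjusted p = 1.7e-06, edgeR). Crh transcripts were scarce, at 1.78 to 6.05 CPM over all Sleep mice and 3.55 to 8.47 CPM over all SD mice.

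Feedback inhibitors of MAP kinase signalling rose in 13 of 21 cases and none fell (median 0.28). Dusp1, a phosphatase of MAP kinases, was at 27.4 to 49.9 CPM (median 31.4) in NoCFC Sleep and 46.4 to 73.8 CPM (median 62.1) in NoCFC SD mice, and at 28 to 42 CPM (median 34.6) in CFC Sleep and 49.5 to 59.4 CPM (median 51.1) in CFC SD mice. In NoCFC 1 Sleep mouse, at 49.9 CPM, reached into the SD range, and in CFC the groups were apart (0.76 ± 0.08, adjusted p = 6.8e-09, edgeR). Spry4 (0.91 ± 0.08) and Spry2 (0.41 ± 0.06), Sprouty inhibitors of receptor tyrosine kinase signalling, rose, as did Trib1 (0.78 ± 0.09), Dusp5 (0.48 ± 0.05) and Errfi1 (0.44 ± 0.05), an inhibitor of the EGF receptor. Dusp6, a phosphatase of ERK, did not pass (0.11).

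Promoters of the activity-regulated genes that rose were read for the cAMP response element (CRE, TGACGTCA), the site of CREB, since these genes moved together. RefSeq promoters (GRCm38.p6, 250 bases before to 50 after the start) were matched for 11910 of the 16485 genes tested, and both strands were searched. The full CRE was in 4 of the 37 matched genes that rose in the 5 activity lists (10.8%: Arl5b, Pcsk1, Scg2 and Sst), in 9 of all 64 matched genes of these lists (14.1%), and in 3.43% of all matched genes. The shorter core TGACG, which lies within the full CRE, was in 25 of 37 (67.6%), in 40 of the 64 (62.5%) and in 33.7% of all. AP-1 sites (TGAGTCA or TGACTCA) were in 0 of 37, in 3 of the 64 (4.69%) and in 4.46% of all. These matches describe the letters of the window and do not show binding. The 150 bases before the start site are shown for 3 secretory pathway genes and for the phosphatase gene Dusp1, with the CRE in capitals. They lie at chr16:23890845-23890994 (minus strand), chr13:75089707-75089856 (plus strand), chr1:79440027-79440176 (minus strand) and chr17:26508473-26508622 (minus strand).
Sst: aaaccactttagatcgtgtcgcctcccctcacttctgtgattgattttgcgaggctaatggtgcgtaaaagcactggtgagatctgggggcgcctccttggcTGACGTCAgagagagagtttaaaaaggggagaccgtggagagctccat
Pcsk1: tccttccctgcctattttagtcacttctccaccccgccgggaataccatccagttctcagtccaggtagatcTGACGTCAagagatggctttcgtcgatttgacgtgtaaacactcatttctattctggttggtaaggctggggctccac
Scg2: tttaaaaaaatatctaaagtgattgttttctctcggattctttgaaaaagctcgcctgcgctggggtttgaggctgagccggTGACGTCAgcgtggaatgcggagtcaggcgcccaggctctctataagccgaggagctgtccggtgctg
Dusp1: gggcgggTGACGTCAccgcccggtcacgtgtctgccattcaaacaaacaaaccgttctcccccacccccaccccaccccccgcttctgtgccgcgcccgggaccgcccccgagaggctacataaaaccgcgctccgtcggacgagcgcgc
In these 4 stretches the CRE begins 48, 78, 68 and 143 bases before the start site.

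Chaperones of the endoplasmic reticulum (ER), which fold secreted and membrane proteins and are induced by the unfolded protein response, rose in 10 of 31 cases with none lower (median 0.13). Hspa5, the ER chaperone BiP, was at 147 to 219 CPM (median 201) in NoCFC Sleep and 176 to 371 CPM (median 246) in NoCFC SD mice, and at 166 to 247 CPM (median 209) in CFC Sleep and 231 to 376 CPM (median 271) in CFC SD mice. The groups overlapped in both arms, and the averaged rise was 0.43 ± 0.09 (adjusted p = 0.0021, edgeR). Its cofactor Sdf2l1 rose by 0.85 ± 0.15, the secreted ER protein Creld2 by 0.48 ± 0.09, Manf by 0.42 ± 0.08, the transcription factor gene Xbp1 by 0.42 ± 0.07 and the disulfide isomerases Pdia4 and Pdia6 by 0.30 ± 0.06 and 0.29 ± 0.06. Hsp90b1 (0.07), Canx (0.00) and Dnajb9 (-0.11) did not pass. Of 19 targets of the integrated stress response Atf4 (0.30 ± 0.04) and Ddit3 (0.27 ± 0.06) rose and none fell, and among 24 cytosolic heat-shock genes 7 rose, Bag3 by the most (0.56 ± 0.10), and none fell. Without the 7 libraries high in choroid plexus markers, 9 of the ER genes and 3 of the heat-shock genes rose.

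The ER stress element (ERSE, CCAAT followed after 9 bases of any kind by CCACG, on both strands), to which the factors ATF6 and NF-Y bind, was in the promoters of 9 of 26 matched ER genes (34.6%), and in 5 of the 9 matched members that rose (Calr, Creld2, Dnajc3, Hspa5 and Pdia6). Over all 11910 matched genes it was in 17 (0.143%). The element is in capitals in the 150 bases before the start site of 3 of these genes, shown because they carry this match and rose, at chr2:34771940-34772089 (plus strand), chr12:17266439-17266588 (plus strand) and chr15:88819496-88819645 (plus strand).
Hspa5: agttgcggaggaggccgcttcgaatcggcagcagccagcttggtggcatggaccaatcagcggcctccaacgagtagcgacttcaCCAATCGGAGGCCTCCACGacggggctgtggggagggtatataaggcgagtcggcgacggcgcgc
Pdia6: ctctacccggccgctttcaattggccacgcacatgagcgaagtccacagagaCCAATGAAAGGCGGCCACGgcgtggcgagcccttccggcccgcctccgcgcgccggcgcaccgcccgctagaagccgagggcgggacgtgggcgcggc
Creld2: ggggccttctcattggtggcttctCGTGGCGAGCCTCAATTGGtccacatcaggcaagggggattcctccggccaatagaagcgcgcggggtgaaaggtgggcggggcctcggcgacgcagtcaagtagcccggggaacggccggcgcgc
In Creld2 it lies on the opposite strand, so that the capitals read as its reverse complement.

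Few genes of the translation machinery that the captured ribosomes belong to passed. None of 46 large-subunit and 33 small-subunit ribosomal protein genes rose or fell (medians -0.03 and -0.04). By arm these medians were -0.08 and -0.10 in NoCFC and 0.03 and 0.03 in CFC. Rps6 itself was at group medians of 84.4 and 77 CPM in NoCFC Sleep and SD mice and 80.2 and 81.6 CPM in CFC Sleep and SD mice (-0.05 ± 0.05, adjusted p = 0.69, edgeR). Of 55 translation factors 1 rose (Eif4e2, 0.11 ± 0.03) and none fell, and of 20 aminoacyl-tRNA synthetases none rose or fell. In the pathway from growth factors through mTORC1 to S6 kinase, 6 of 46 genes rose and 3 fell (median 0.02). The folliculin gene Flcn (0.30 ± 0.04), a regulator of the Rag GTPases, and Irs2 (0.29 ± 0.05), an insulin receptor substrate, rose the most, and Pdcd4, an inhibitor of translation that S6 kinase marks for breakdown, fell (-0.19 ± 0.05). Leaving out the 7 libraries left 3 that rose and 1 that fell. Nuclear-encoded oxidative phosphorylation genes (0 of 76) and proteasome subunits (0 of 33) had no call either way. The oxidative phosphorylation median was -0.06 in NoCFC and 0.06 in CFC.

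RNA-binding and splicing genes were among those that fell. Srsf5 (12:80945504-80950507, plus strand), a splicing factor of the SR family, was at 241 to 292 CPM (median 258) in NoCFC Sleep and 165 to 210 CPM (median 195) in NoCFC SD mice, and at 224 to 259 CPM (median 241) in CFC Sleep and 144 to 197 CPM (median 181) in CFC SD mice. All SD mice were below all Sleep mice in both arms (-0.45 ± 0.04, adjusted p = 2.8e-09, edgeR), with differences of -0.43, -0.36 and -0.60 in the 3 runs. Hnrnpdl (5:100033577-100039664, minus strand), a heterogeneous nuclear ribonucleoprotein, was at 124 to 134 CPM against 84.6 to 99.4 CPM in NoCFC and 101 to 132 against 67.7 to 95.5 CPM in CFC, also without overlap (-0.43 ± 0.04). The SR list as a whole did not share this direction: 4 of 24 genes rose and only Srsf5 fell, with Rsrp1 at 0.56 ± 0.07, Srsf10 at 0.22 ± 0.06 and Srsf7 at 0.18 ± 0.05, and 2 members rose without the 7 libraries high in choroid plexus markers. The cold-inducible genes Rbm3 (-0.37 ± 0.06) and Cirbp (-0.21 ± 0.04) both fell. Rbm3 was at 37.9 to 54.1 CPM (median 46.9) and 28.6 to 40.2 CPM (median 30.9) in NoCFC Sleep and SD mice, and at 34.9 to 45.2 CPM (median 42.7) and 28.9 to 41.3 CPM (median 38.2) in CFC Sleep and SD mice. The groups overlapped in both arms, and its exons overlap Rbm3os on the other strand.

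Other genes that fell came from several families. Wnt9a, a Wnt ligand, went from medians of 10 to 5.64 CPM in NoCFC and 8.76 to 5.31 CPM in CFC (-0.77 ± 0.11, adjusted p = 6.1e-06, edgeR). Lefty2, an inhibitor of Nodal signalling, fell by 0.56 on the log2 scale (SE 0.09). The LIM-domain genes Lmo1 (-0.41 ± 0.05) and Fhl2 (-0.36 ± 0.05) fell from Sleep medians of 182 and 109 CPM in NoCFC, and Fhl2 separated the groups in both arms, as did Anln, an actin-binding gene (-0.36 ± 0.06). Over all genes tested, the SD and Sleep mice did not overlap in NoCFC in 88 genes with SD above (0.534%) and 43 below (0.261%), and in CFC in 74 (0.449%) and 38 (0.231%). Among them 7 had all SD mice below all Sleep mice in both arms (0.0425%) and 34 had all above (0.206%). The 13 that come from the activity lists are among the 34. Chosen from the 34 after their values were seen are also the potassium channel gene Kcnf1 (0.54 ± 0.05) and the channel-interacting protein gene Kcnip1 (0.35 ± 0.04). So are the glycolytic regulator Pfkfb3 (0.40 ± 0.05) and the peptide gene Cartpt (1.00 ± 0.09).

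Clock genes moved in both directions, with 4 of 22 higher and 2 lower. The list counts here stand beside shares over all genes of 4.6% higher and 3.28% lower. Per1, which glucocorticoids and activity induce, rose by 0.42 ± 0.05, and Dbp, a clock output gene, fell by 0.31 on the log2 scale (SE 0.09). Bmal1 (as Arntl, 0.06), Per2 (0.13) and Nr1d1 (-0.16) did not pass. Of 17 genes that glucocorticoids induce 8 rose and none fell (median 0.31), but Cdkn1a, Dusp1, Errfi1 and Per1 are shared with the lists above. Tsc22d3 (0.31 ± 0.07) and Sgk1 (0.25 ± 0.05) rose, and Fkbp5 (0.14) did not pass. Among 65 chromatin modifiers 5 rose and none fell, not far from the 4.6% of all genes that rose. Kdm7a was at 0.49 ± 0.07 and the class II deacetylase gene Hdac4 at 0.37 ± 0.04. When the 7 libraries were left out, 3 chromatin genes rose, and 3 clock genes rose and 1 fell. When the 3 libraries high in astrocyte markers were left out, 6 clock genes rose and 3 fell. Cholesterol synthesis genes, which neurons and astrocytes both use, rose in 5 of 25 cases with none lower and in 2 cases without the 7 libraries. Of 26 glycolysis genes Pfkfb3 and Pfkfb4 (0.39 ± 0.12) rose and none fell, and the fall of mt-Nd6 (-0.42 ± 0.12) was the call among 9 mitochondrially encoded genes. By sign all 9 were lower, with a median of -0.20 (-0.11 in NoCFC and -0.33 in CFC). The exons of mt-Nd6 overlap the more abundant mt-Nd5 on the other strand, which was at -0.32, and the counts of the pair cannot be told apart if strand was not used.

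Synaptic receptor, channel and vesicle fusion genes were read beside the shares over all genes, 4.6% higher and 3.28% lower. At such shares a list of 7 to 24 genes would hold few calls. No NMDA, kainate or metabotropic glutamate receptor gene and no voltage-gated sodium or calcium channel gene passed (0 of 15, 0 of 7 and 0 of 24). Among 25 genes of AMPA receptor subunits and auxiliary proteins the only call was a rise of the scaffold gene Dlg1 (0.20 ± 0.06). Of 17 GABA-A receptor genes Gabra5 fell (-0.16 ± 0.04). In the potassium channel list 5 of 67 rose and 2 fell, and in the vesicle fusion list 5 of 55 rose and 2 fell, with the active zone genes Rims4, Rims2 and Rims3 at 0.29 ± 0.06, 0.28 ± 0.04 and 0.26 ± 0.08. Leaving out the 7 libraries gave 4 and 1 potassium channel genes and 3 and 1 vesicle fusion genes.

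**Figure D3:**
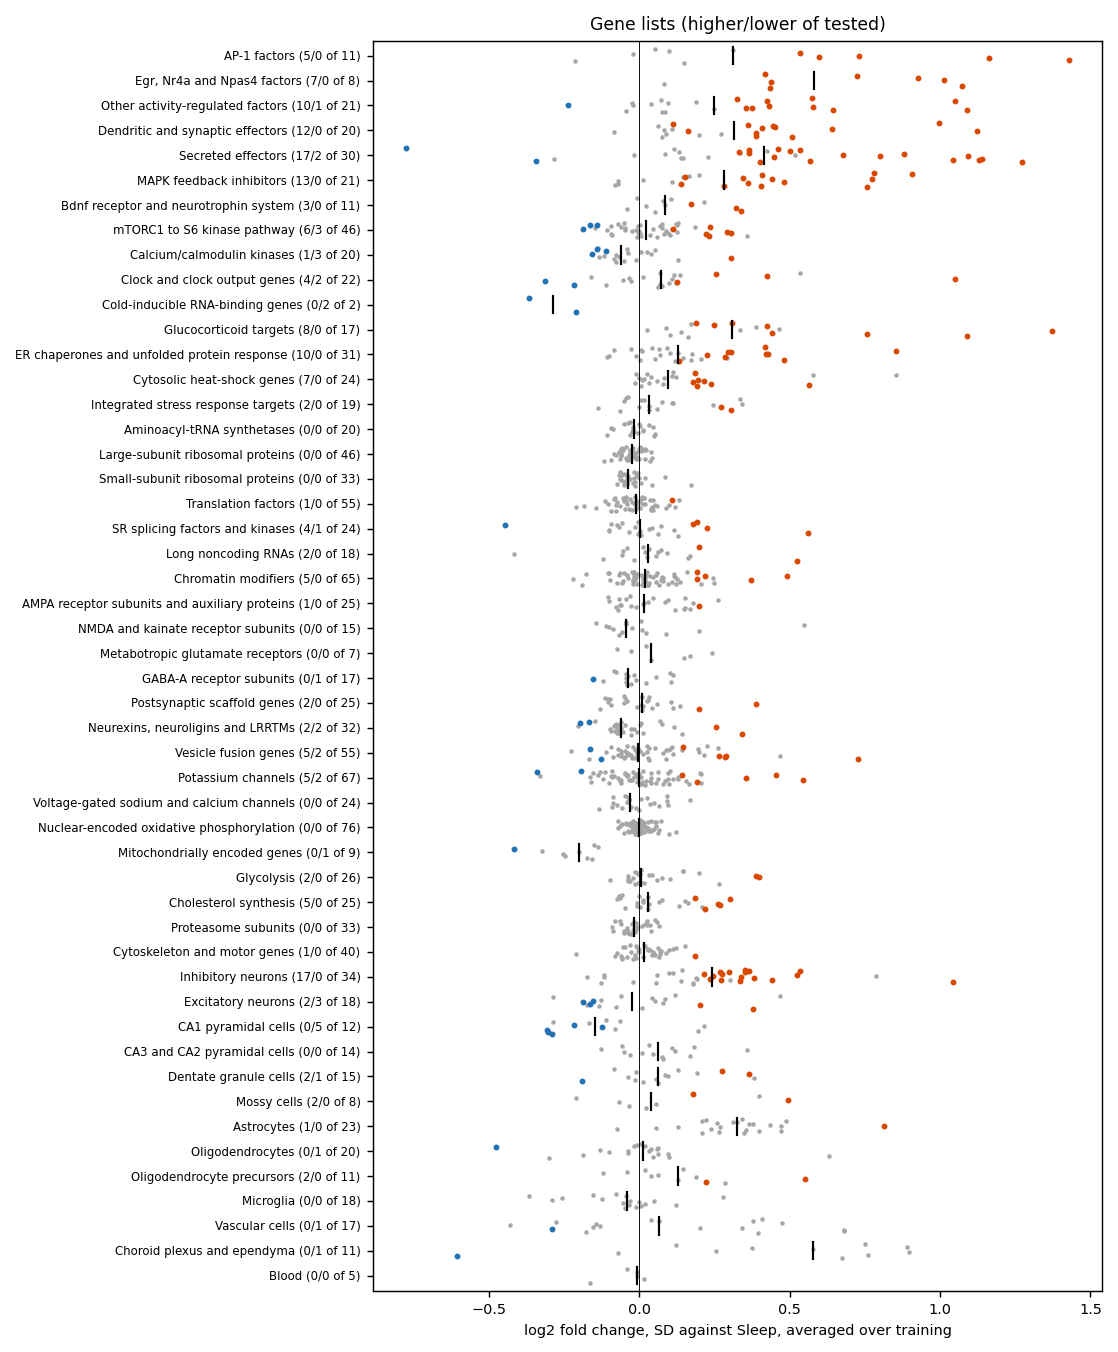
Log2 fold change of SD against Sleep, averaged over training, for the tested members of each gene list (1 point a gene, called genes coloured), with the numbers higher and lower of those tested beside each list name. The activity-regulated and MAP kinase feedback lists and the inhibitory neuron list lie to the right of 0, and ribosomal protein and oxidative phosphorylation genes lie close to 0.

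Markers of inhibitory neurons, the GABA-releasing cells, rose in 17 of 34 cases with none lower (median 0.24). Some of them, such as Sst and Tac1, are also counted in the activity lists above. Sst, which encodes somatostatin and marks dendrite-targeting interneurons, was at 133 to 192 CPM (median 157) in NoCFC Sleep and 183 to 289 CPM (median 206) in NoCFC SD mice. In CFC it was at 122 to 227 CPM (median 154) with Sleep and 186 to 319 CPM (median 225) with SD. The groups overlapped in both arms, and Sst rose by 0.54 ± 0.10 (adjusted p = 0.00048, edgeR). Besides peptides such as Npy (0.52 ± 0.08), genes of identity and GABA synthesis or transport rose: Gad2 (0.38 ± 0.06), Lhx6 (0.34 ± 0.05), Dlx1 (0.34 ± 0.05), Slc32a1 (0.30 ± 0.08) and Gad1 (0.24 ± 0.05). Pvalb rose by 0.22 ± 0.06, and Cck (-0.13), Reln (0.10) and Lamp5 (-0.12) did not pass. The summed level of the 34 markers was 2230 to 2560 CPM over Sleep mice and 2410 to 2880 CPM over SD mice, and it was 0.10, 0.09 and 0.24 higher on the log2 scale in the 3 runs. In these bulk captures, more captured ribosomes from these cells and more of the transcript per cell cannot be told apart. Of the 34, 13 rose when the 7 libraries were left out.

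Markers of CA1 pyramidal cells went the other way, with 0 of 12 higher and 5 lower (median -0.15), among them Fibcd1 (-0.31 ± 0.08) and Lefty1 (-0.31 ± 0.07). Without the 7 libraries 2 were lower, and without the 3 libraries high in astrocyte markers 3. Read by arm, 0 of the 12 were lower in NoCFC and 1 in CFC. Here too, fewer captured ribosomes from these cells and less of the transcript per cell cannot be told apart. General excitatory markers were mixed (2 of 18 higher and 3 lower, 1 lower without the 7 and 5 lower without the 3), and of 14 CA3 and CA2 markers none passed. Camk2a was at -0.13 ± 0.06 (adjusted p = 0.196, edgeR).

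Astrocyte markers were higher in SD in 22 of 23 genes by sign, with a median of 0.33, but only the gap junction gene Gjb6 passed (0.81 ± 0.22, adjusted p = 0.02, edgeR). Their summed level was 1380 to 3730 CPM over Sleep mice and 1510 to 5030 CPM over SD mice. Without the 3 libraries high in astrocyte markers 3 of the 23 rose, and without the 7 libraries high in choroid plexus markers none did. Among oligodendrocyte markers 1 of 20 fell (Opalin, -0.48 ± 0.09), and no microglia marker passed (0 of 18). The part of these other cells in the changes of genes they share with neurons was not tested.

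The effect was then read in each training arm, 7 SD against 8 Sleep mice in each. In NoCFC mice 274 genes rose (1.66%) and 151 fell (0.916%), together 2.58% of genes tested. In CFC mice 232 rose (1.41%) and 99 fell (0.601%), together 2.01%. The arms share no mice. Called in both were 177 genes, which is 41.6% of the 425 NoCFC calls and 53.5% of the 331 CFC calls, and all 177 had the same direction. Of the 425 NoCFC calls 417 had the same sign in CFC, and of the 331 CFC calls 321 had the same sign in NoCFC. Leaving out the 7 libraries, the CFC counts were 79 higher and 11 lower and the NoCFC counts 226 and 124. Of those 7 libraries 3 are CFC SD, 1 CFC Sleep, 1 NoCFC SD and 2 NoCFC Sleep. Of the 90 activity-regulated genes 40 rose in NoCFC and 39 in CFC, 35 of them in both.

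The difference between arms was tested itself, as a training by sleep interaction, and no gene passed (0 of 16485 in edgeR and 0 in DESeq2, with 697 genes at an unadjusted p under 0.05 in edgeR). Fos changed by 1.46 ± 0.18 in NoCFC and 1.40 ± 0.18 in CFC, with a difference of -0.07 ± 0.26. Fosb changed by 1.41 ± 0.17 and 0.91 ± 0.16, a difference of -0.50 ± 0.23 (edgeR, interaction adjusted p = 1, unadjusted p = 0.040). Rbm3 fell in NoCFC (-0.55 ± 0.08) and did not pass in CFC (-0.18 ± 0.08, adjusted p = 0.31), yet its interaction did not pass either (0.38 ± 0.11, adjusted p = 1, edgeR). The retinoic acid hydroxylase gene Cyp26b1 changed by 1.03 ± 0.12 and 0.52 ± 0.12, with the same outcome. A p that misses the threshold does not show that the arms are alike. Nor can arm and run of numbers be told apart in mice 1 to 22. In the runs of NoCFC mice, CFC mice and both, Fosb differed by 1.37, 0.74 and 1.35. Rbm3 differed by -0.45, -0.14 and -0.57 and Cyp26b1 by 0.91, 0.40 and 1.01.

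**Figure D4:**
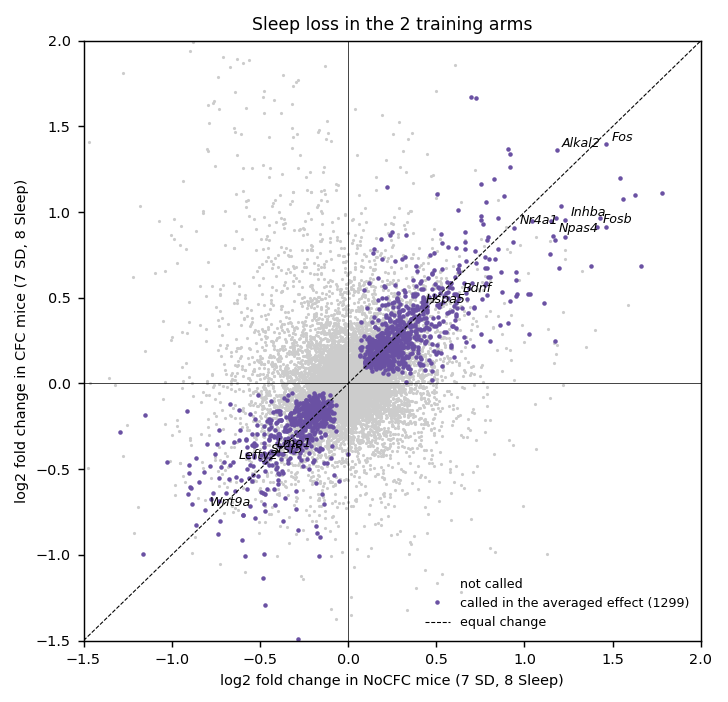
Log2 fold change of SD against Sleep in NoCFC mice (x axis) and in CFC mice (y axis), 1 point a gene, with the 1299 genes called in the averaged effect in purple and a dashed line of equal change. Labelled genes lie along the line in both directions, with Fosb (1.41 in NoCFC and 0.91 in CFC), Inhba and Npas4 below it. Outside the axes lie 50 genes, 2 of them called.

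To see what belonged to the pS6 capture, the sleep-loss effect was compared with that in the cytosolic Input of the same homogenates, by a test of the difference between the effects. The difference passed in 115 of 17112 genes (0.672%), with 87 more positive (0.508%) and 28 more negative (0.164%) in the pS6 capture. With the mouse number as a block, since the number pairs the libraries, 246 and 142 genes passed, and all 115 were kept. The rule named Bdnf, Rgs4, Nr4a2, Rasl11a and Dusp1 as more positive. In Input, Bdnf was at mean levels of 50.2 CPM with Sleep and 46.3 CPM with SD (-0.11 ± 0.04), against 108 and 160 CPM in the pS6 capture, a difference of 0.68 ± 0.07 between the effects (adjusted p = 1.3e-09, edgeR). Bdnf thus rose in the pS6 capture and did not pass the test in Input. Nor did Rgs4, a regulator of G protein signalling (0.36 ± 0.05 in pS6, -0.10 ± 0.04 in Input), or Dusp1 (0.76 ± 0.08 and 0.08 ± 0.06). For Pcsk1 the values were 0.88 ± 0.11 and 0.07 ± 0.07, and for Sst 0.54 ± 0.10 and -0.14 ± 0.08, with differences of 0.81 ± 0.13 and 0.67 ± 0.13 that passed.

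Fos rose in Input too (0.65 ± 0.10), by less than in the pS6 capture (difference 0.78 ± 0.17, adjusted p = 0.006, edgeR). Npas4 was at -0.15 ± 0.24 in Input, and its difference of 1.15 ± 0.30 passed only with the block (adjusted p = 0.052 without and 0.0003 with it, edgeR). Fosb, Cdkn1a, Egr2 and Homer1 likewise passed only with the block. By list, 3 of 11 AP-1 genes, 4 of 8 Egr, Nr4a and Npas4 factors, 9 of 30 secreted factors, 7 of 21 MAP kinase feedback genes and 6 of 34 inhibitory neuron markers had a more positive effect in the pS6 capture, and 4, 7, 15, 10 and 10 of them with the block. Among those more negative in the pS6 capture, Htr1a, a serotonin receptor gene, fell in pS6 (-0.16 ± 0.04) and rose in Input (0.24 ± 0.04), a difference of -0.40 ± 0.06 (adjusted p = 8.7e-06, edgeR). Lmo1 (-0.43 ± 0.08), Ankrd63 (-0.38 ± 0.07), Anln (-0.44 ± 0.08) and Spin2c (-0.33 ± 0.07) were the others that the rule named, all near 0 in Input. Of 12 CA1 markers 1 had a more negative effect in the pS6 capture, and 6 with the block. The block raised the counts over all 17112 genes too, from 87 to 246 more positive and from 28 to 142 more negative.

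Other changes were found in total RNA too. Srsf5 was at -0.44 ± 0.06 in Input, Hnrnpdl at -0.38 ± 0.04, Rbm3 at -0.36 ± 0.06, Hspa5 at 0.44 ± 0.09 and Sdf2l1 at 0.62 ± 0.11, all past the threshold there. Their differences from the pS6 effects (-0.01 ± 0.07, -0.05 ± 0.06, -0.01 ± 0.09, -0.01 ± 0.13 and 0.23 ± 0.19) did not pass, which does not show equal effects. Among the ER chaperone genes 0 of 31 differed in their effect between pS6 and Input, and 1 was more negative in pS6 with the block.

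Against the cytosolic Camk2a capture, that is the HA-tagged ribosomes of Cre-expressing neurons, the difference passed in 98 of 16730 genes (0.586%), with 61 more positive (0.365%) and 37 more negative (0.221%) in the pS6 capture. With the mouse number as a block 185 and 207 genes passed, and all 98 were kept. By smallest p Bdnf came first (-0.17 ± 0.05 in Camk2a, difference 0.73 ± 0.08, adjusted p = 8.3e-10, edgeR), and the rule also named Rasl11a, Spry2, Nfil3 and Nr4a3, with differences of 0.70 ± 0.11, 0.63 ± 0.09, 0.63 ± 0.10 and 0.41 ± 0.07. Larger differences that passed included those of Pim1 (1.51 ± 0.35), Alkal2 (1.28 ± 0.20), Npas4 (1.16 ± 0.28), Cdkn1a (0.87 ± 0.17), Fosb (0.77 ± 0.17) and Pcsk1 (0.77 ± 0.14). Spry2 rose in the pS6 capture (0.41 ± 0.06) and fell in the Camk2a capture (-0.22 ± 0.07). On the negative side were Htr1a (-0.49 ± 0.07), Ndrg1 (-0.45 ± 0.08), Anln (-0.57 ± 0.10), Lmo1 (-0.47 ± 0.09) and Syt17 (-0.25 ± 0.05). Of these, Htr1a and Ndrg1 rose in the Camk2a capture (0.33 ± 0.06 and 0.26 ± 0.05). Of the inhibitory neuron markers 0 of 34 passed in this comparison, and with the block 3 were more positive and 1 more negative. Of 12 CA1 markers 1 was more negative in the pS6 capture, and 4 with the block. Sst was at 0.04 ± 0.11 in the Camk2a capture, a difference of 0.50 ± 0.15 that passed only with the block (adjusted p = 0.16 without and 0.0026 with it, edgeR). Fos, Nr4a1, Junb and Npy likewise passed only with the block.

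Against the membrane pS6 libraries the sleep-loss effect differed in 0 of 17855 genes at an adjusted p under 0.05 (edgeR, 842 at an unadjusted p under 0.05; DESeq2 was not run on this difference). Bdnf rose by 0.64 ± 0.06 there, Pcsk1 by 0.85 ± 0.08, Inhba by 1.05 ± 0.09 and Sst by 0.47 ± 0.06, and Srsf5 fell by 0.46 on the log2 scale (SE 0.05). Fos rose by 1.03 ± 0.15 on membrane ribosomes and Dusp1 by 0.34 ± 0.09, with differences of 0.39 and 0.41 that did not pass.

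**Figure D5:**
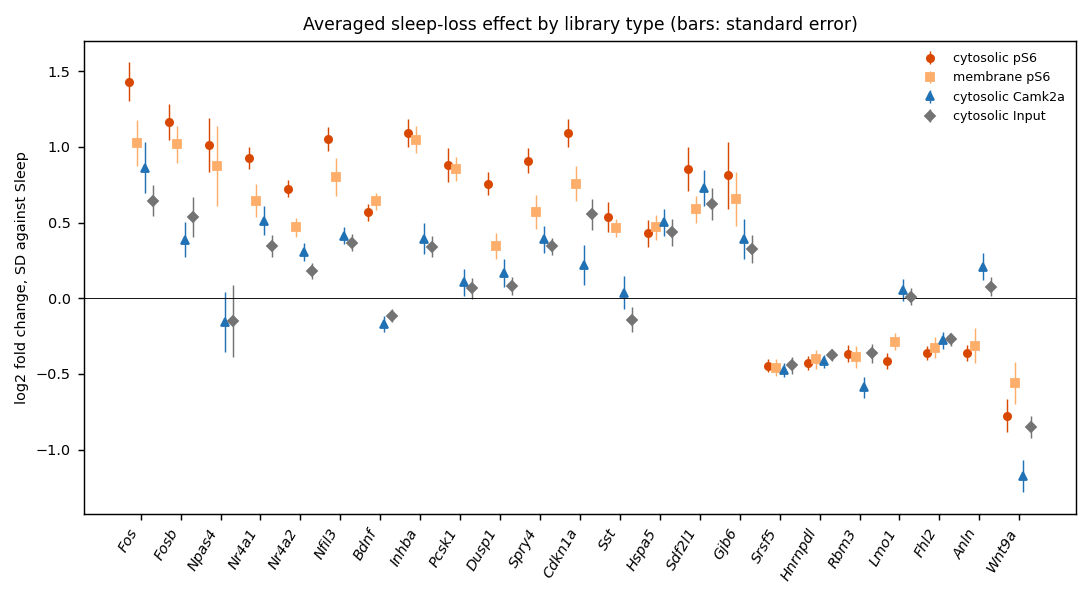
Log2 fold change of SD against Sleep, averaged over training, of 23 genes in the cytosolic pS6, cytosolic Input, cytosolic Camk2a and membrane pS6 libraries (points, with the SE as bars). Bdnf, Pcsk1, Npas4, Dusp1 and Sst lie above 0 in both pS6 types and near or below 0 in Input and Camk2a, while Hspa5, Srsf5 and Hnrnpdl have similar values in all 4.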

How the data were processed

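The deposited table holds the authors' counts per gene, 54429 genes by 180 libraries, as whole numbers with no normalization. Per the labels' protocols, homogenate was split into supernatant and pellet, each divided into Input and the 2 captures, and libraries were made with SMART-seq v4. The submitters' processing notes name STAR 2.6.1a, featureCounts, MultiQC 1.6a0 and GRCm38.p6. Strand use is not given in the sources used here, so exons that overlap a gene on the other strand (Alkal2 with Acp1, Bdnf with Gm45346, Dusp1 with Ergic1, Junb with Prdx2, Dbp with Sphk2, Amz1 with Gna12, Rbm3 with Rbm3os, mt-Nd6 with mt-Nd5, and Cdkn1a, Hdac4, Kdm7a, Pim1, Crem, Ndrg1 and Gpr3) leave those counts uncertain. Of the genes tested, 16393 have a name in GENCODE vM21, and 32 names belong to more than 1 gene.

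The 30 libraries were fitted with edgeR 4.0.16 under R 4.3.3: filterByExpr, TMM scaling, 1 mean per group, robust quasi-likelihood F-test, Benjamini-Hochberg adjustment, threshold 0.05. Differences between library types were fitted on both types together. Log2 CPM carries a prior count of 2. Library scaling varied by factors of 0.969 to 1.03. On simulated data of 16485 genes, 67, 67 and 66 genes were changed by 0.25, 0.5 and 1 on the log2 scale. The averaged test recovered 52.2%, 65.7% and 95.5% of them, with 14 false among 156 calls (8.97%), above the threshold of 0.05. Far fewer genes were changed than were called in the data. Genes were drawn independently, without runs of numbers or libraries high in markers, so these shares may not hold for the real fit. Each fraction was divided into Input and captures, and a number was taken as 1 mouse, so same-numbered libraries are paired. As a check, with group means removed, cytosolic pS6 and Input libraries of the same number correlated by a median of 0.257 (all 30 over 0.1), and of different numbers by -0.0091. With Camk2a and membrane pS6 libraries the medians were 0.216 (28 of 30 over 0.1) and 0.165 (24 of 30).

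Members, gene lists, tests and motifs were chosen with earlier results of these data known, and no list is independent support. The rule named the 20 genes each way with the largest change past the threshold with a mean log2 CPM of 3 or more, passing over predicted genes (names such as Gm or Rik with digits, clones and pseudogenes), and the 5 each way with the smallest p for differences; other genes are list members or were chosen after their values were seen. Alternatives were the scaling, the count filter, DESeq2 1.42.0, the number run as a term, each arm alone, the replicate block and leaving out each mouse, and, chosen after seeing the data, leaving out the 7 and the 3 libraries high in markers of other cells. Reads carry no molecular identifiers, so depth limits scarce transcripts such as Pim1 and Npas4 most.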

Additional observations from a re-analysis of the deposited data

Results flagged for a closer look

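A sample far from the others of its group was looked for with Dixon's test in 212 groups of 7 or 8 mice. These groups covered marker sums and a part of the named genes. Apln and Ppp1r3g were among the named genes left out. CFC SD mouse 19 was at 27.5 CPM of Apln, where the other mice of that group were at most at 10.1 CPM. Among the groups tested 23 such samples were found, and chance gives about 1 in 20.

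Markers of other cells account for 10 of them. The summed choroid plexus and ependyma markers were at 2730 CPM in CFC SD mouse 22, 912 CPM in CFC Sleep mouse 14, 806 CPM in NoCFC SD mouse 7 and 1360 CPM in NoCFC Sleep mouse 2, where the other mice of these groups were at most at 1120, 75.8, 61.9 and 580 CPM. Astrocyte markers summed to 5030 CPM in CFC SD mouse 19, 3730 CPM in CFC Sleep mouse 12 and 2940 CPM in NoCFC SD mouse 27, against at most 2120 CPM in the others of those groups. Oligodendrocyte markers summed to 2040 CPM in CFC SD mouse 22 and 1690 CPM in NoCFC Sleep mouse 2, and blood markers to 344 CPM in NoCFC Sleep mouse 24.

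Mouse 19 also had the highest Gjb6 (83.1 CPM) and Dbp (169 CPM) of the CFC SD group, and mouse 12 the highest Gjb6 (52.3 CPM) of CFC Sleep. CFC SD mouse 29 was highest for Sdf2l1 (86.2 CPM) and Rsrp1 (248 CPM) and lowest for Lefty2 (5.59 CPM). CFC Sleep mouse 13 was highest for Cdkn1a (13 CPM) and Crh (6.05 CPM), and CFC Sleep mouse 26 for Anln (37.1 CPM). Single NoCFC mice stood apart for Dusp1 (Sleep mouse 1, 49.9 CPM), Pim1 (Sleep mouse 5, 0.235 CPM), Dbp (Sleep mouse 2, 95.6 CPM) and Rbm3 (SD mouse 8, 40.2 CPM).

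The sleep-loss effect differed between the pS6 capture and other cytosolic libraries of the same mice, by a test of the difference itself. Against Input the differences were 0.68 for Bdnf, 0.45 for Rgs4, 0.54 for Nr4a2, 0.58 for Rasl11a and 0.67 for Dusp1, and -0.40 for Htr1a, -0.43 for Lmo1, -0.38 for Ankrd63, -0.44 for Anln and -0.33 for Spin2c, on the log2 scale. Against the Camk2a capture they were 0.73 for Bdnf, 0.63 for Spry2, 0.70 for Rasl11a, 0.63 for Nfil3 and 0.41 for Nr4a3, and -0.49 for Htr1a, -0.45 for Ndrg1, -0.57 for Anln, -0.47 for Lmo1 and -0.25 for Syt17.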

How the results depend on the processing

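For the averaged effect, leaving out each mouse in turn gave 601 (without NoCFC SD 9) to 795 (without NoCFC Sleep 2) genes higher and 431 (without NoCFC SD 28) to 639 (without NoCFC Sleep 2) lower. Other scaling, filters, DESeq2 and the number run as a term gave 550 to 838 higher and 393 to 687 lower. Without the 7 libraries high in choroid plexus markers the averaged counts were 467 and 281, and the CFC counts 79 and 11. With no filter on low counts the NoCFC count of lower genes was 89, the CFC counts 149 and 62, and the count more negative than in Input 17. DESeq2 gave 249 lower genes in NoCFC and 188 in CFC, and the 15 CFC libraries alone gave 60 lower. The causes were not tested. Fits that left libraries out held fewer samples, and without the 3 libraries high in astrocyte markers 788 genes rose and 620 fell.

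With the replicate block the counts against Input were 246 and 142. Against Camk2a they were 185 and 207, with all 98 genes kept, and against membrane pS6 still 0 (1169 at an unadjusted p under 0.05).

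Of 64 named genes none changed direction. Apln, Vgll3, Nov and Dbp missed the threshold with no filter, Nov without the 3 libraries high in astrocyte markers, and Ppp1r3g, Gjb6, Apln, Vgll3, Cplx3, Nov and Dbp without the 7. Leaving out 1 mouse at a time, Apln passed in 10 of 30 fits, Vgll3 in 29 and the other 38 genes of the averaged rule in all 30. Of the other named genes Nov passed in 19 fits, Dbp in 29 and the rest in all 30. Of the list counts, 24 moved by over 1.5 times without the 7 libraries and 15 without the 3. Depth limits scarce transcripts most.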
